A study of Homo sapiens with 26 samples.

Results

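The 8 genes described here carry or receive angiogenic and lymphangiogenic signals: the ligands VEGFA, VEGFB, VEGFC and PGF, the co-receptors NRP1 and NRP2, the secreted VEGFC cofactor CCBE1 and the roundabout receptor ROBO4. They were chosen by name, with earlier results of these data known, and make up 8 of the 33562 genes in the deposited table. Counts of calls among the 8 are therefore description and cannot be read as enrichment. RNA was sequenced in 26 libraries of 9 lines of MDA-MB-231Luc, a luciferase-marked form of the human triple-negative breast cancer line MDA-MB-231. Aurora kinase A (AURKA), a mitotic serine/threonine kinase, was expressed without a localization signal (WT), with a nuclear export signal (NES) or with a nuclear localization signal (NLS). The study asked how the compartment of AURKA relates to RNA profiles and to metastasis in xenografts. The xenografts are not analysed here.

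The 3 control lines were Empty, NES-Empty and NLS-Empty. They carried the pLUTZ mRFP vector without AURKA cDNA, with no signal, the NES or the NLS, and were labelled with the guide sgCon at passages 19 to 20. The WT-AURKA clones c1 and c2 and the NES-AURKA clones c1 and c2 carried the cDNA labelled MUT2 and the guide sgAURKA2. The NLS-AURKA clones c2 and c3 carried the cDNA labelled MUT1 and the guide sgAURKA1, and all 6 clones were at passages 32 to 35. All lines grew on plastic in doxycycline, which drives the vector's promoter. WT-AURKA c2 has 2 libraries and every other line has 3. Each AURKA line is 1 clone, so AURKA cDNA, the AURKA guide, later passage and cloning cannot be told apart in any comparison with the controls. The nuclear signal likewise cannot be told apart from the MUT1 and sgAURKA1 labels. No label states that a line's libraries are separate cultures, so p-values over libraries measure only the spread between those libraries, which may be technical.

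VEGFA is the main driver of sprouting of blood vessels and signals through the receptor tyrosine kinase KDR, while VEGFB and PGF bind FLT1. VEGFC drives growth of lymphatic vessels through FLT4 after its precursor is cut by the protease ADAMTS3, a step that the matrix protein CCBE1 promotes. NRP1 and NRP2 hold VEGF and class 3 semaphorin ligands beside their signalling receptors, and ROBO4 is known as a receptor of endothelial cells that restrains vessel leakage. Tumour cells commonly secrete VEGF ligands, whose receptors lie mostly on vessel cells.

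Promoter sequence is shown for CCBE1, ROBO4 and PGF because, of the 8 genes, CCBE1 and ROBO4 differed most between AURKA and control lines on the log2 scale and PGF, after CCBE1, between NLS-AURKA and the other constructs. RefSeq promoter entries on GRCh38.p14 were found for 6 of the 8 genes: VEGFB, VEGFC, PGF, NRP2, CCBE1 and ROBO4. Each stretch is the 250 bases upstream of a RefSeq start site, read 5′ to 3′ on the gene's own minus strand. CCBE1 lies on chromosome 18 (chr18:59697424-59697673), ROBO4 on chromosome 11 (chr11:124897866-124898115) and PGF on chromosome 14 (chr14:74955765-74956014, the first of 2 listed sites). Capitals mark matches, on either strand, to the core of the hypoxia response element (ACGTG) or to the GC box (GGGCGG), and no 2 matches overlap in these 3 stretches.
CCBE1: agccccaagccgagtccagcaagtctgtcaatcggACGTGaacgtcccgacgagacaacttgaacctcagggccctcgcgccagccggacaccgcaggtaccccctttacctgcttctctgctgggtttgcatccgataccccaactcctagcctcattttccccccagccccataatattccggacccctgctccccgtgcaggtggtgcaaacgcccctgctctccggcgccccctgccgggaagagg
ROBO4: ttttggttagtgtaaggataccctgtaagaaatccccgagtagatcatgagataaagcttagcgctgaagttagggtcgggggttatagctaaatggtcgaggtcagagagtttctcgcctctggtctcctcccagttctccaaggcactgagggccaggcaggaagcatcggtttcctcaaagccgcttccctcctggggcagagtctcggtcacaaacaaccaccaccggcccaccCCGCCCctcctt
PGF: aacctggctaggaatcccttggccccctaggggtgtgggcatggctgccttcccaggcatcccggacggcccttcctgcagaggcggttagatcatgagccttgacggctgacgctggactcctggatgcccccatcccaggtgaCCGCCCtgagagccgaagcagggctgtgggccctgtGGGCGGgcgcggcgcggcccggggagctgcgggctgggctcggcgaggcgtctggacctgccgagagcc
The CCBE1 stretch held 17 CpG dinucleotides and 1 hypoxia response core, ROBO4 held 10 CpG and 1 GC box, and PGF held 18 CpG and 2 GC boxes. Among 35116 RefSeq promoters of this length the mean was 13.68 CpG, 18.51% held the hypoxia response core and 42.64% a GC box. No TATA box (TATAAA, in 10.72% of promoters), AP-1 motif (TGANTCA, in 6.573%) or E-box (CACGTG, in 6.345%) was found in the stretches of the 6 genes. These are matches of letters and not tested sites.

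Across the whole series, estimated depth was 12200000 to 20300000 reads per library. Titles carry letters, with A to H on 1 library each of 8 lines and I to Z on the other 18 libraries, and these letter sets differed by an adjusted limma p under 0.05 and at least 1 on the log2(RPKM + 1) scale in 7.05% of genes and in 0 of the 8 genes described here. By adjusted p alone NRP2 was higher in A to H by 0.55, VEGFB by 0.50, NRP1 by 0.39 and CCBE1 by 0.16, and PGF was lower (-0.29). The share of all genes passing by adjusted p alone was not computed, so these shifts are not set apart from those of other genes. Over 800 genes, library A correlated with the I to Z profile of its own line, NES-AURKA c2, at r = 0.342, against 0.715 to 0.900 for the other A to H libraries. Library H of NLS-AURKA c2 correlated more with NLS-AURKA c3 (0.869) than with its own line (0.818). AURKA itself was at 34.0 to 68.9 RPKM in control libraries, 12.7 to 84.1 RPKM in WT-AURKA, 15.5 to 37.0 RPKM in NES-AURKA and 38.4 to 105 RPKM in NLS-AURKA, in a row that does not separate the cDNA from the endogenous gene. Thus 4 of the 5 WT-AURKA libraries lay below all controls in AURKA RNA. VIM (234 to 1059 RPKM) and KRT18 (65.3 to 222 RPKM) were high in every library, as known of MDA-MB-231. Of the genes listed as low in MDA-MB-231, ESR1 (at most 0.0220 RPKM) and PGR (at most 0.0120 RPKM) were near 0 in every library. The others on that list were higher. ERBB2 was at 2.24 to 5.06 RPKM, GATA3 at 0.543 to 1.80 RPKM and FOXA1 at 0.0471 to 2.27 RPKM. Levels below are in RPKM, reads scaled by transcript length and by the mapped total of the library. Differences are in log2(RPKM + 1), a scale that understates changes of low genes.

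AURKA lines were first set against control lines with 1 value per line (n = 6 against 3). ROBO4, VEGFC and VEGFB were higher in the AURKA lines and VEGFA and CCBE1 lower. Thus 5 of the 8 genes passed limma at an adjusted p under 0.05, where 19.2% of all 12589 tested genes passed, 8.85% as higher and 10.4% as lower. The 3 genes that did not pass were PGF, NRP1 and NRP2. Line means did not overlap between arms for VEGFA, VEGFC, NRP2, CCBE1 and ROBO4, as for 29% of all tested genes. The like share for ranges of single libraries, given below as description, was not computed.

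**Figure D1:**
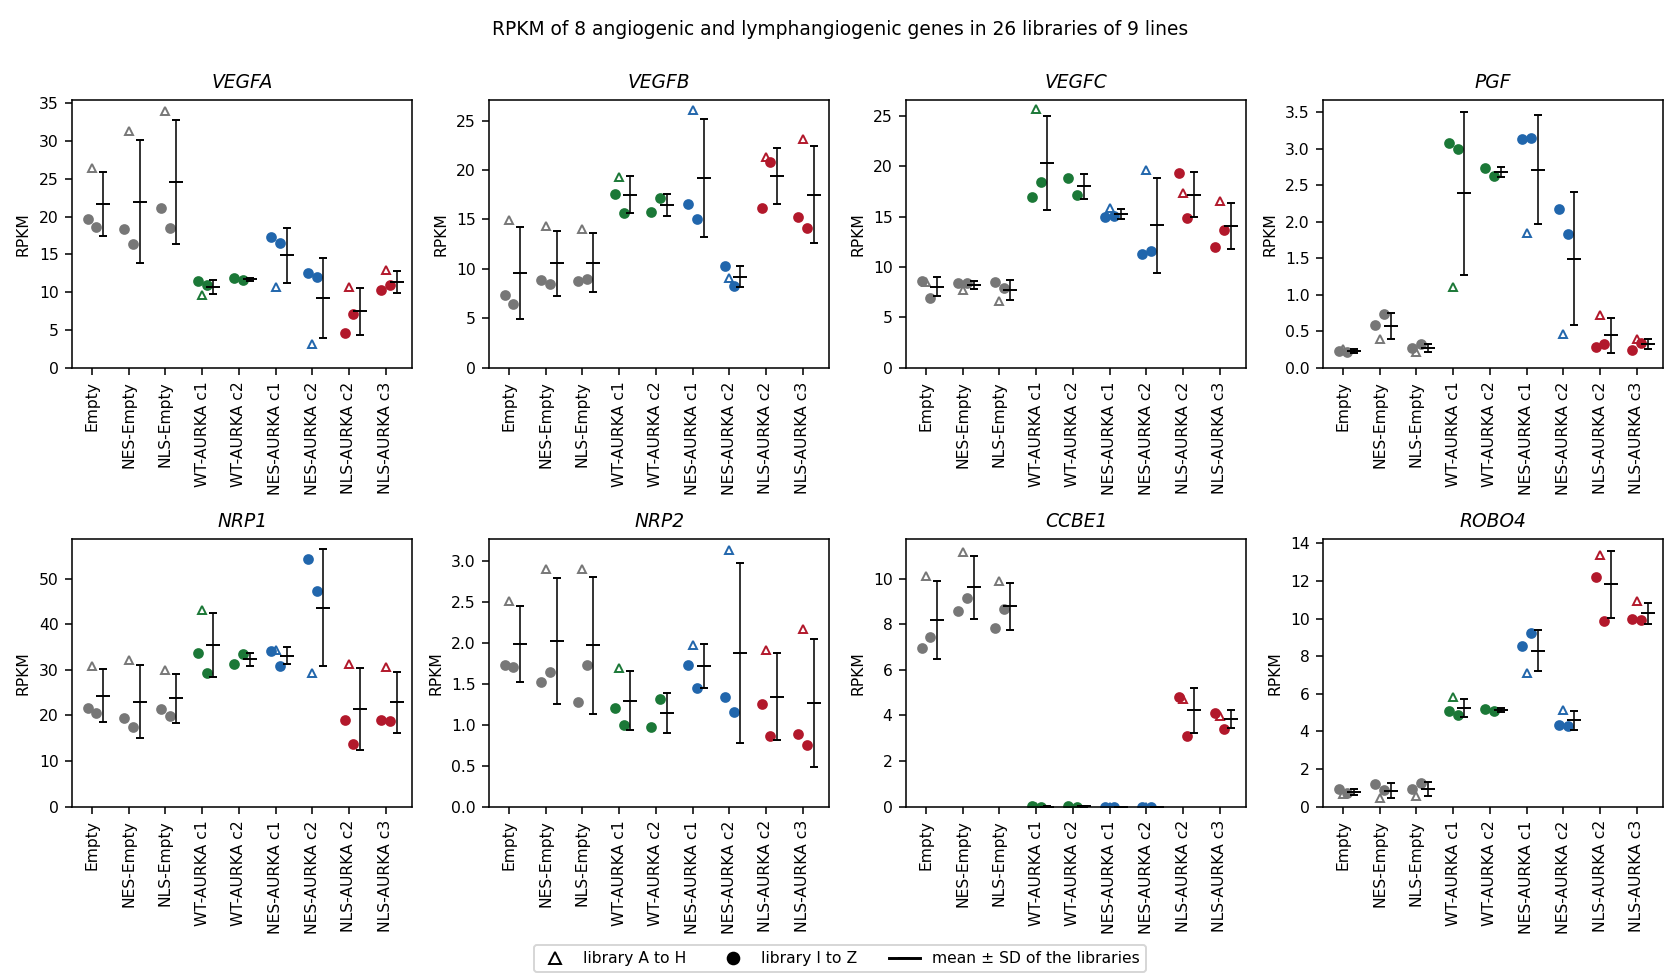
RPKM (y axis, linear, from 0) of the 8 genes in the 26 libraries, by line (x axis; grey control, green WT-AURKA, blue NES-AURKA, red NLS-AURKA), with open triangles for libraries A to H, filled circles for I to Z, and the mean ± SD of each line's libraries. CCBE1 is at or near 0 in all WT-AURKA and NES-AURKA libraries, and every AURKA library lies above every control library in ROBO4 and VEGFC.

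Among the ligands, VEGFA RNA was lower in the AURKA lines. In bulk libraries such as these, fewer cells that express a gene and less of its RNA per cell cannot be told apart. The 9 control libraries ranged from 16.3 to 33.9 RPKM with a median of 19.7, and the 17 AURKA libraries from 3.16 to 17.3 RPKM with a median of 10.9. The 2 ranges overlap only through library L of NES-Empty (16.3 RPKM) and libraries S and T of NES-AURKA c1 (17.3 and 16.5 RPKM). Line means were 22.7 ± 1.59 RPKM (SD, n = 3) in control and 10.9 ± 2.49 RPKM (n = 6) in AURKA lines, 2.09-fold lower, with a log2 difference of -1.03 (SE 0.19, limma adjusted p = 0.00512). In every control line the A to H library was the highest, at 26.4, 31.3 and 33.9 RPKM. Within the I to Z libraries the VEGFA difference was -0.73 (limma adjusted p = 0.0643), and A to H alone gave -1.70 (adjusted p = 0.0170). NLS-AURKA c2 had the lowest mean, 7.48 RPKM, from libraries at 10.7, 4.58 and 7.12 RPKM, and NES-AURKA c1 the highest of the clones, 14.8 RPKM.

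VEGFC RNA moved the other way. Control libraries ranged from 6.65 to 8.59 RPKM (median 8.43) and AURKA libraries from 11.3 to 25.7 RPKM (median 16.5), with no overlap. Line means were 7.98 ± 0.252 RPKM (SD, n = 3) and 16.5 ± 2.46 RPKM (n = 6), 2.07-fold higher in the AURKA lines (log2 difference 0.94, SE 0.12, limma adjusted p = 0.00107). WT-AURKA c1 had the highest line mean, 20.3 RPKM, through library D at 25.7 RPKM, the highest of all, while O and P held 16.9 and 18.4 RPKM. The lowest AURKA libraries were U and V of NES-AURKA c2, at 11.3 and 11.6 RPKM, while library A of that clone held 19.6 RPKM. Without library A, a choice made after seeing the data, the VEGFC difference was 0.90 (adjusted p = 0.00374).

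VEGFB RNA, which encodes a ligand of FLT1 tied to fatty acid transport rather than sprouting, was also higher in the AURKA lines, with 1 clone as an exception. Control libraries ranged from 6.44 to 15.0 RPKM (median 8.84) and AURKA libraries from 8.24 to 26.03 RPKM (median 16.2), and the ranges overlap. Library A, U and V of NES-AURKA c2 held 9.06, 10.3 and 8.24 RPKM, within the control range, while no library of the other 5 clones was below 14.1 RPKM. The log2 difference was 0.64 (SE 0.20, limma adjusted p = 0.0473; 16.6 ± 3.77 against 10.3 ± 0.589 RPKM). The VEGFB call was lost under 10 of 17 alternative settings, with adjusted p from 0.000812 to 0.456 over the 17, and it was 0.79 (adjusted p = 0.000812) without NES-AURKA c2. Dropping any 1 control line also ended the call, with adjusted p from 0.126 to 0.176.

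PGF, the placenta growth factor, had higher line means in the WT-AURKA and NES-AURKA clones than in the NLS-AURKA clones and control lines. In the WT-AURKA libraries D, O, P, Q and R it was at 1.11, 3.08, 2.99, 2.73 and 2.63 RPKM. In NES-AURKA it was at 1.85, 3.13 and 3.15 RPKM in c1 and 0.461, 2.18 and 1.83 RPKM in c2. In NLS-AURKA the libraries ranged from 0.245 to 0.718 RPKM with a median of 0.333, and in the control lines from 0.211 to 0.738 RPKM with a median of 0.270. Thus all NLS-AURKA libraries lay within the control range, as did library A of NES-AURKA c2, and the other 10 WT-AURKA and NES-AURKA libraries lay above it. Over all 6 clones the difference from control did not pass (0.84, SE 0.34, limma adjusted p = 0.115), except in the fit that matched each construct to the control line with its signal (adjusted p = 0.0286) or when NLS-AURKA c3 was set aside (1.01, adjusted p = 0.0399). PGF is low throughout: only 10 of the 26 libraries reached 1 RPKM.

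The ligands were then added up per library as a description, with no test. The summed RPKM of VEGFA, VEGFB, VEGFC and PGF was 41.3 ± 1.85 (SD, n = 3 lines) in control and 45.6 ± 6.61 (n = 6) in AURKA lines. VEGFA made up 54.5% ± 1.98 of that sum in the control lines and 23.9% ± 4.51 in the AURKA lines. VEGFC made up 20.2% ± 1.20 and 36.6% ± 4.73, VEGFB 24.4% ± 0.990 and 35.9% ± 5.74, and PGF 0.921% ± 0.505 and 3.60% ± 2.16. By the mean over a line's libraries VEGFA held the largest share in all control lines, and VEGFB or VEGFC in all 6 clones. In both NES-AURKA clones that order rests on the A to H library: VEGFA held the largest share in S, T, U and V (33.2% to 35.8%), VEGFB in F (47.9%) and VEGFC in A (60.7%). Within each letter set the VEGFA share of every AURKA library (9.80% to 24.5% in A to H, 11.4% to 35.8% in I to Z) was below that of every control library (52.7% to 61.8% and 48.0% to 57.9%).

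**Figure D2:**
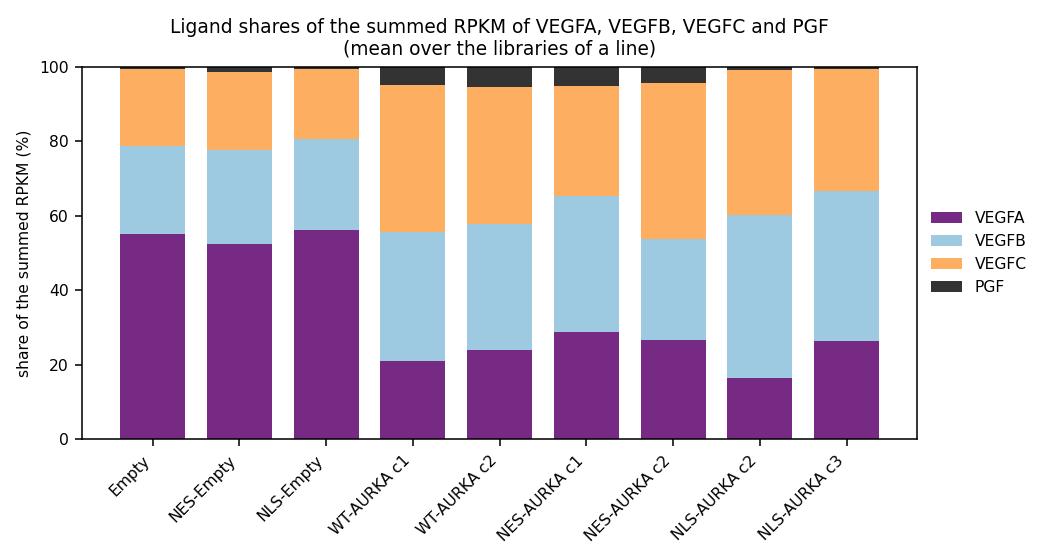
Stacked bars of the share of the summed RPKM (y axis, percent) held by VEGFA, VEGFB, VEGFC and PGF in each line (x axis), as means over its libraries. VEGFA holds 52.3% to 56.1% in the 3 control lines and 16.4% to 28.7% in the 6 AURKA lines.

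Of the co-receptors, NRP1 was the more abundant. It ranged from 17.4 to 32.2 RPKM (median 21.4) in control and 13.8 to 54.3 RPKM (median 31.3) in AURKA libraries. The highest NRP1 libraries were U and V of NES-AURKA c2 (54.3 and 47.4 RPKM), while library A of that clone held 29.3 RPKM, and the lowest was X of NLS-AURKA c2 (13.8 RPKM). The arms did not differ by limma (0.36, SE 0.21, 95% interval -0.11 to 0.82, adjusted p = 0.261), and the 4 WT-AURKA and NES-AURKA means (32.3 to 43.6 RPKM) lay above all others (21.4 to 24.3 RPKM).

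NRP2, the neuropilin of lymphatic endothelium, was low in all lines, with 1.28 to 2.91 RPKM (median 1.73) in control and 0.756 to 3.14 RPKM (median 1.32) in AURKA libraries. Its line means were 1.995 ± 0.0294 RPKM (SD, n = 3) in control and 1.44 ± 0.288 RPKM (n = 6) in AURKA lines, and the difference did not pass (-0.30, SE 0.10, limma adjusted p = 0.0651). It passed in the matched fit (adjusted p = 0.0384), without NES-AURKA c2 (-0.34, adjusted p = 0.0312) and without library A alone (-0.35, adjusted p = 0.0266). In each of the 8 lines with both letter sets the A to H library had the highest NRP2 value. The ratio of NRP1 to NRP2 was 12.2 ± 0.680 (SD, n = 3 lines) in control and 23.7 ± 5.94 (n = 6) in AURKA lines, given without a test.

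CCBE1 had the largest difference of the 8 between AURKA and control lines on the log2(RPKM + 1) scale. In control libraries it was at 10.1, 6.94 and 7.46 RPKM in Empty, 11.2, 8.56 and 9.13 RPKM in NES-Empty and 9.88, 7.82 and 8.67 RPKM in NLS-Empty. It was listed at 0 in all 6 NES-AURKA libraries and in 3 of the 5 WT-AURKA libraries, and at 0.0102 and 0.0109 RPKM in libraries O and Q. In NLS-AURKA it was at 4.74, 4.82 and 3.09 RPKM in c2 and at 3.99, 4.12 and 3.39 RPKM in c3. The libraries therefore fell into 3 ranges that do not overlap: control, NLS-AURKA, and WT-AURKA with NES-AURKA at the bottom.

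At the estimated depth of the 11 WT-AURKA and NES-AURKA libraries, 1 read of CCBE1 (longest transcript 6403 bases) is worth 0.00795 to 0.0128 RPKM, so the values in O and Q are those of about 1 read each. A count of 0 allows up to 3 reads, or at most 0.0384 RPKM in these libraries, which covers counting error only. The lowest of 15 genes that every cell uses was at 4.20 RPKM in any library. These genes were picked as present in any cell, so their values cannot show why CCBE1 is at 0, which was not tested. Over all clones the limma difference from control was -2.52 (SE 0.60, adjusted p = 0.0172; 1.34 ± 2.08 against 8.87 ± 0.728 RPKM). This call was lost without Empty, NES-Empty or NLS-Empty (adjusted p 0.0624 to 0.0748) and when low genes were kept in (adjusted p = 0.0641), and the size depends on the pseudocount, reaching -4.67 with 0.1 in place of 1.

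ROBO4 was the most raised of the 8 genes. Control libraries ranged from 0.452 to 1.27 RPKM (median 0.902) and AURKA libraries from 4.28 to 13.4 RPKM (median 7.12), with no overlap. In WT-AURKA it was at 5.82, 5.06 and 4.87 RPKM in c1 and 5.21 and 5.08 RPKM in c2, and in NES-AURKA at 7.12, 8.55 and 9.22 RPKM in c1 and 5.15, 4.33 and 4.28 RPKM in c2. In NLS-AURKA it was at 13.4, 12.2 and 9.88 RPKM in c2 and 10.9, 9.99 and 9.94 RPKM in c3, so NLS-AURKA libraries lay above all others. Line means were 0.854 ± 0.0673 RPKM (SD, n = 3) in control and 7.56 ± 3.04 RPKM (n = 6) in AURKA lines, 8.86-fold higher (log2 difference 2.14, SE 0.26, limma adjusted p = 0.000779). ROBO4 kept its call under all 17 alternative settings, with adjusted p from 0.000253 to 0.00767.

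**Figure D3:**
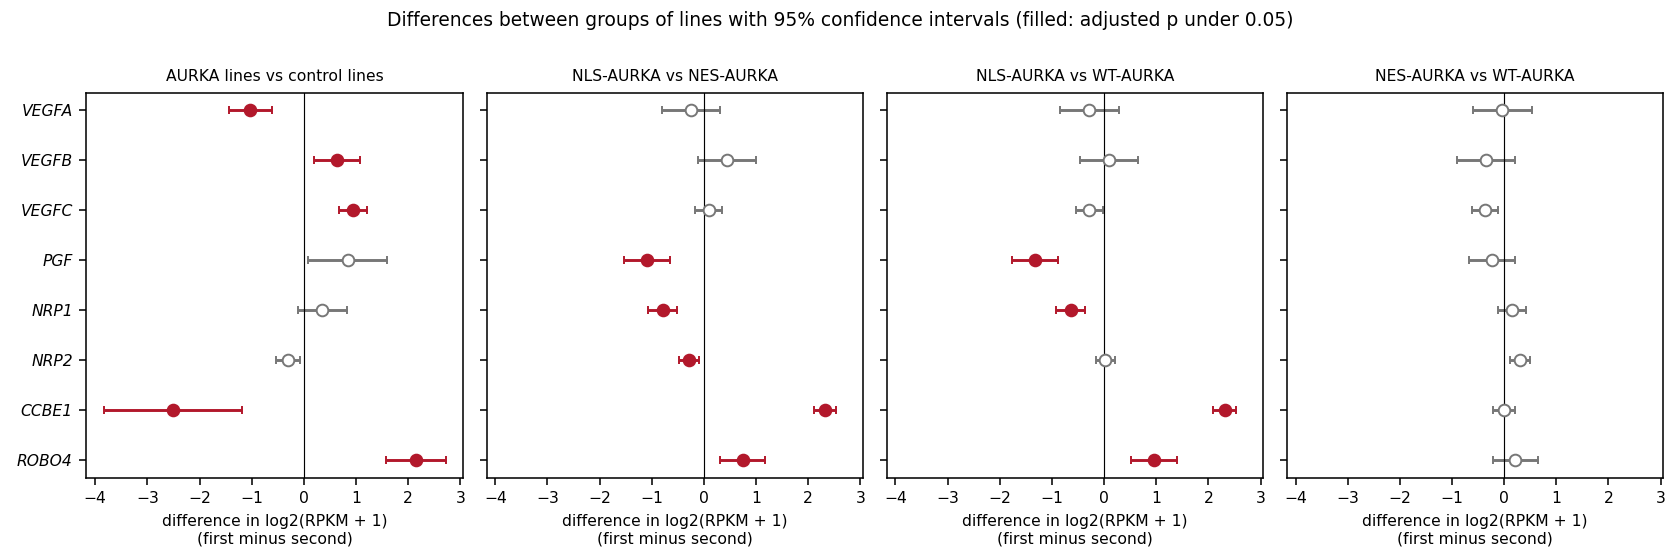
Differences in log2(RPKM + 1) (x axis, first group minus second) for the 8 genes (y axis) in 4 contrasts of line means, with 95% confidence intervals from limma and filled points where the adjusted p is under 0.05. CCBE1 lies at -2.52 in AURKA against control lines, at 2.32 and 2.31 in NLS-AURKA against NES-AURKA and WT-AURKA, and at -0.01 between NES-AURKA and WT-AURKA. Both NES-AURKA and WT-AURKA were at or near 0 RPKM in CCBE1.

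Constructs were compared next, 2 clones against 2. NLS-AURKA also differs from the other constructs in guide and cDNA label, so its contrasts cannot be assigned to the nuclear signal. NLS-AURKA differed from NES-AURKA in 5 of the 8 genes, where 33.2% of all tested genes passed (19.1% higher and 14.1% lower). CCBE1 was higher in NLS-AURKA, at 4.03 ± 0.273 RPKM (SD, n = 2) against 0 in both NES-AURKA clones (log2 difference 2.32, SE 0.10, limma adjusted p = 2.19e-06), a size that depends on the pseudocount. ROBO4 was higher, at 11.1 ± 1.08 against 6.44 ± 2.62 RPKM (0.74, SE 0.19, adjusted p = 0.0176). PGF was lower, at 0.383 ± 0.0833 against 2.10 ± 0.863 RPKM (-1.10, SE 0.20, adjusted p = 0.00319), as were NRP1, at 22.1 ± 1.04 against 38.4 ± 7.43 RPKM (-0.79, SE 0.12, adjusted p = 0.00154), and NRP2 (-0.28, SE 0.08, adjusted p = 0.0286).

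Only the CCBE1 call held in each letter set and with each line left out. ROBO4 lost its call within I to Z (0.66, limma adjusted p = 0.0509), without filter (adjusted p = 0.0852) and without either NLS-AURKA clone (adjusted p 0.0557 and 0.114). Of the letter sets, A to H includes library A, and there NRP1 differed by -0.04 (adjusted p = 0.892) and PGF by -0.40 (adjusted p = 0.452), against -1.17 (adjusted p = 0.00140) and -1.44 (adjusted p = 0.000496) in I to Z. Leaving out NES-AURKA c1 or c2 moved the ROBO4 difference to 1.10 and 0.37. NRP2 lost its call under 7 of 16 settings, among them without library A (-0.13, adjusted p = 0.361). VEGFA (-0.25, 95% interval -0.81 to 0.32, adjusted p = 0.486), VEGFB (0.44, -0.12 to 0.99, adjusted p = 0.204) and VEGFC (0.09, -0.17 to 0.34, adjusted p = 0.588) did not pass. VEGFA passed within I to Z (-0.81, adjusted p = 0.0223) and without library A (-0.53, adjusted p = 0.0492).

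NLS-AURKA against WT-AURKA gave 4 calls among the 8 genes, where 36.1% of all genes passed (18.7% higher and 17.4% lower). CCBE1 was higher by 2.31 (SE 0.10, limma adjusted p = 1.90e-06) and ROBO4 by 0.95 (SE 0.19, adjusted p = 0.00515; 11.1 ± 1.08 against 5.20 ± 0.0756 RPKM). PGF was lower (-1.33, SE 0.20, adjusted p = 0.00106; WT-AURKA at 2.54 ± 0.205 RPKM) as was NRP1 (-0.64, SE 0.12, adjusted p = 0.00372; WT-AURKA at 33.9 ± 2.20 RPKM). In the A to H libraries, where D is the only WT-AURKA library, ROBO4 (0.94, adjusted p = 0.0667), PGF (-0.44, adjusted p = 0.527) and NRP1 (-0.47, adjusted p = 0.158) did not pass. In that library PGF was at its WT-AURKA minimum, and NRP1 at its WT-AURKA maximum of 43.1 RPKM.

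NES-AURKA and WT-AURKA were not separated in any of the 8 genes by limma at adjusted p (0 of 8), where 4.87% of all genes passed. CCBE1 was at or near 0 RPKM in both constructs, so its test could hardly have found a difference. At an unadjusted p under 0.05, a level whose share of all genes was not computed, there were 2 of 8. The 2 were NRP2 (0.31, SE 0.08, adjusted p = 0.0676) and VEGFC (-0.37, SE 0.11, adjusted p = 0.0959). The interval for ROBO4 was -0.22 to 0.65 and for PGF -0.68 to 0.21, and differences between the constructs as large as these bounds cannot be set aside. These 3 contrasts share clones, and no contrast of constructs is independent of the others.

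Each clone was also set against the control line with its own signal in a fit over libraries, where a call needed an adjusted p under 0.05 and a difference of at least 1. Of 48 pairs of a gene and a clone, 19 were called. By clone, WT-AURKA c1 and c2 had 4 each, NES-AURKA c1 and c2 and NLS-AURKA c2 had 3 each and NLS-AURKA c3 had 2, where 3.53%, 3.19%, 4.43%, 2.83%, 5.75% and 5.13% of all genes were called in that order. ROBO4 was called higher in 6 of 6 clones, with log2 differences from 1.61 in NES-AURKA c2 to 2.75 in NLS-AURKA c2, and CCBE1 lower in 5 of 6. CCBE1 fell by 3.17 to 3.40 in the WT-AURKA and NES-AURKA clones, by 1.02 in NLS-AURKA c3 and, below the size limit, by 0.92 in NLS-AURKA c2 (limma adjusted p = 9.46e-05). In NLS-AURKA c3 CCBE1 also dropped under that limit without G of NLS-Empty (-0.94) or Z of its own (-0.95) and within I to Z (-0.96).

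VEGFC had an adjusted p under 0.05 in 6 of 6 clones, a rule without the size limit whose share of all genes was not computed. It reached a difference of 1 in WT-AURKA c1 (1.22), WT-AURKA c2 (1.08) and NLS-AURKA c2 (1.06). The call in WT-AURKA c2 was lost without library J of Empty (0.99) or Q of its own (adjusted p = 0.0515), and that in NLS-AURKA c2 fell under the size limit without G of NLS-Empty (0.97) or W of its own (0.98) and within I to Z (0.96). PGF was called in WT-AURKA c1 (1.40), WT-AURKA c2 (1.58) and NES-AURKA c1 (1.23), while in NLS-AURKA c2 and c3 it differed by 0.17 and 0.06 (limma adjusted p = 0.743 and 0.945). VEGFA was called in NLS-AURKA c2 (-1.61, SE 0.36, adjusted p = 0.00350) and NES-AURKA c2 (-1.29, SE 0.36, adjusted p = 0.0279). In the second clone VEGFA was at 3.16 RPKM in library A against 12.6 and 12.1 RPKM in U and V, and without A the call was lost (-0.73, adjusted p = 0.162). It was also lost without library C (-1.02, adjusted p = 0.143) or K (-1.39, adjusted p = 0.0515) of NES-Empty, within I to Z (-0.46, under the size limit) and without filter (adjusted p = 0.0646), all from the limma fit to VEGFA in NES-AURKA c2. VEGFB, NRP1 and NRP2 were called in none of the 6 clones, although VEGFB had an adjusted p under 0.05 in 2.

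**Figure D4:**
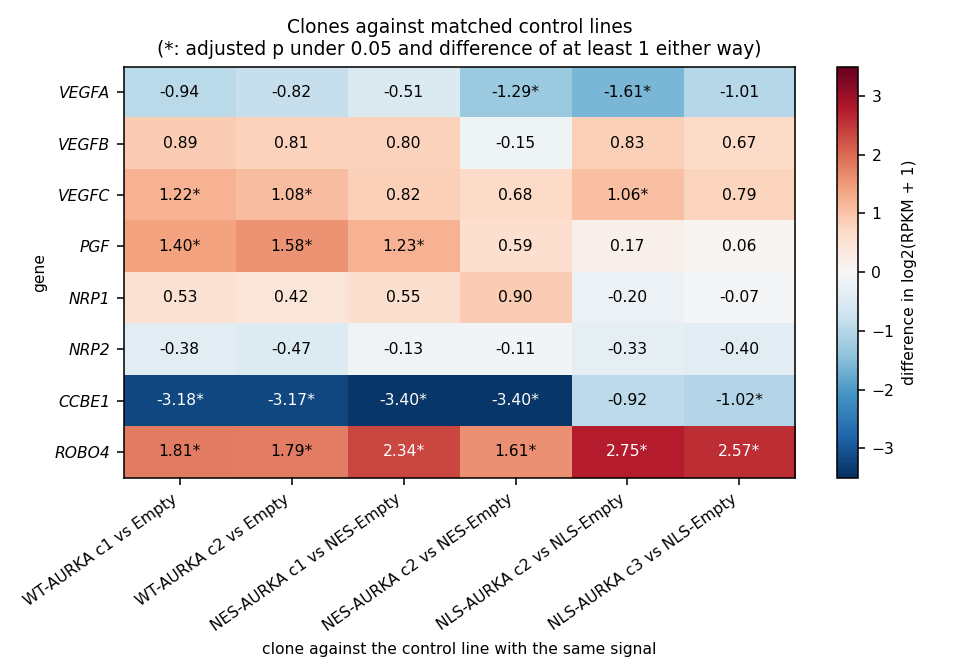
Differences in log2(RPKM + 1) (colour and printed value) of the 8 genes (y axis) in each clone against the control line with the same signal (x axis), with a star where the limma adjusted p is under 0.05 and the difference at least 1 either way. ROBO4 is starred in all 6 columns, and CCBE1 ranges from -3.40 to -0.92.

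The difference between these effects was tested too. CCBE1 fell less in NLS-AURKA than in NES-AURKA, by 2.43 (SE 0.17, limma adjusted p = 1.94e-08), and less than in WT-AURKA, by 2.21 (SE 0.18, adjusted p = 1.31e-07). Both sizes depend on the settings, with 2.33 to 5.48 and 2.06 to 5.17 over 31 alternatives. In the NES-AURKA and WT-AURKA clones CCBE1 was at or near 0 RPKM, so its fall there was set by the level of the control line. For PGF the NLS-AURKA effect was below the WT-AURKA effect (-1.37, SE 0.31, adjusted p = 0.00793), while its difference from the NES-AURKA effect was not called (-0.79, adjusted p = 0.138). ROBO4 differed by 0.68 (adjusted p = 0.0340) and 0.86 (adjusted p = 0.00852), both under the size limit. These make 1 and 2 calls among the 8 genes, where 3.03% and 3.66% of all genes were called, and the NES-AURKA effect against the WT-AURKA effect gave 0 (0 of 8 at an unadjusted p under 0.05, 0.246% of all genes called).

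Clones of 1 construct were then set against each other, and 0 of 24 pairs of a gene and a construct were called by limma (0%, 1.08% and 0% of all genes for WT-AURKA, NES-AURKA and NLS-AURKA). At an unadjusted p under 0.05 there were 0 in WT-AURKA, 4 in NES-AURKA and 0 in NLS-AURKA. The share of all genes at that looser level was not computed. NES-AURKA c2 lay below c1 in ROBO4 (-0.73, SE 0.16, adjusted p = 0.00927, under the size limit), and VEGFB differed by -0.95 (SE 0.27, adjusted p = 0.0501).

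In order of the line means, neighbouring lines mostly overlapped in their libraries. The share of such steps over all tested genes was not computed, so the counts only describe these genes. For CCBE1, 2 of 8 neighbouring pairs did not overlap: Empty (8.18 RPKM) above NLS-AURKA c2 (4.22 RPKM), and NLS-AURKA c3 (3.83 RPKM) above WT-AURKA c2 (0.00546 RPKM). For ROBO4, 3 of 8 did not: NLS-AURKA c3 (10.3 RPKM) above NES-AURKA c1 (8.30 RPKM), that clone above WT-AURKA c1 (5.25 RPKM), and NES-AURKA c2 (4.59 RPKM) above NLS-Empty (0.921 RPKM). VEGFA, VEGFB, VEGFC and NRP1 each had 1 such step, at the border of the control lines for VEGFA and VEGFC, and PGF and NRP2 had none.

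The receptors of these ligands were scarce. FLT4, the VEGFC receptor, was at 0 in 25 of 26 libraries (at most 0.00623 RPKM), and FLT1 was at 0.00651 to 0.0437 RPKM. KDR, the main VEGFA receptor, was at 0.163 to 0.877 RPKM in all libraries outside NLS-AURKA, and at 4.08, 3.29 and 2.33 RPKM in NLS-AURKA c2 and 4.05, 3.03 and 3.16 RPKM in c3. KDR differed between NLS-AURKA and NES-AURKA by 1.78 (SE 0.11, limma adjusted p = 1.71e-05; 3.32 ± 0.126 against 0.249 ± 0.0787 RPKM). ADAMTS3, the protease that CCBE1 assists, was at most 0.482 RPKM and the related ligand FIGF (VEGFD) at most 0.0611 RPKM. Line means of ADAMTS3 were 0.0175 to 0.0425 RPKM in control and 0.0960 to 0.280 RPKM in AURKA lines. Its single libraries overlapped between the arms, and it lay below the filter and was not tested.

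Of 13 other receptors and co-receptors 9 were tested, and 2 rose and 2 fell in AURKA against control lines (median 0.38, against -0.02 for all tested genes). ROBO1, a SLIT receptor, rose from 0.0788 ± 0.0209 to 3.12 ± 1.88 RPKM (1.75, SE 0.32, limma adjusted p = 0.00537). ITGB3, the integrin beta chain that associates with KDR, fell from 4.48 ± 0.576 to 1.19 ± 0.251 RPKM (-1.32, SE 0.12, limma adjusted p = 0.000149). ROBO3 (0.38) and GPC1 (-0.86) also passed, ROBO3 not in A to H (adjusted p = 0.158) and GPC1 not in I to Z (adjusted p = 0.103), and both were named after their values were seen. In NLS-AURKA against NES-AURKA 3 rose and 1 fell (median -0.23, against 0.05 for all). KDR, the heparan sulphate co-receptor SDC1 (1.31, adjusted p = 0.000480) and ROBO1 (1.29, adjusted p = 0.000180) rose. PLXND1 fell (-0.96, and limma adjusted p = 0.516 in A to H), named after its value was seen.

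Of 24 other secreted ligands 16 were tested, and 4 rose and 1 fell in AURKA lines (median 0.15). The axon guidance ligand SLIT2 rose from 0.614 ± 0.0707 to 4.37 ± 1.33 RPKM (1.68, SE 0.20, limma adjusted p = 0.000791), and SEMA3A, a class 3 semaphorin that binds NRP1, from 1.57 ± 0.351 to 7.01 ± 2.36 RPKM (1.64, SE 0.21, adjusted p = 0.000969). PDGFC (0.76) and APLN (0.38, adjusted p = 0.201 in I to Z) also rose and SEMA3B (-0.71, adjusted p = 0.148 in I to Z and 0.0543 in A to H) fell, named after their values were seen. Between NLS-AURKA and NES-AURKA 4 rose and 6 fell (median -0.24), and the vasodilator peptide ADM rose by 1.22 (SE 0.15, adjusted p = 0.000621).

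SLIT2 had the line profile closest to ROBO4 among 975 variable genes (Pearson r = 0.990 over the 9 line means), ahead of ELK3 (0.987) and C15orf52 (0.985). All of these r values are descriptions over 9 lines, of which 3 share the control arm and 6 the AURKA arm. SLIT2 was at 0.297 to 1.03 RPKM in the control libraries, 2.86 to 6.33 RPKM in WT-AURKA, 1.56 to 5.95 RPKM in NES-AURKA and 5.06 to 7.70 RPKM in NLS-AURKA. The AURKA libraries thus lay above the controls in ROBO4, SLIT2 and ROBO1 alike, and in each of these genes the NLS-AURKA line means were the highest. Between NLS-AURKA and NES-AURKA SLIT2 differed by 0.96 in I to Z (limma adjusted p = 0.00874) and by -0.05 in A to H (adjusted p = 0.832), and ROBO1 by 1.48 (adjusted p = 1.93e-05) and 0.91 (adjusted p = 0.180).

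**Figure D5:**
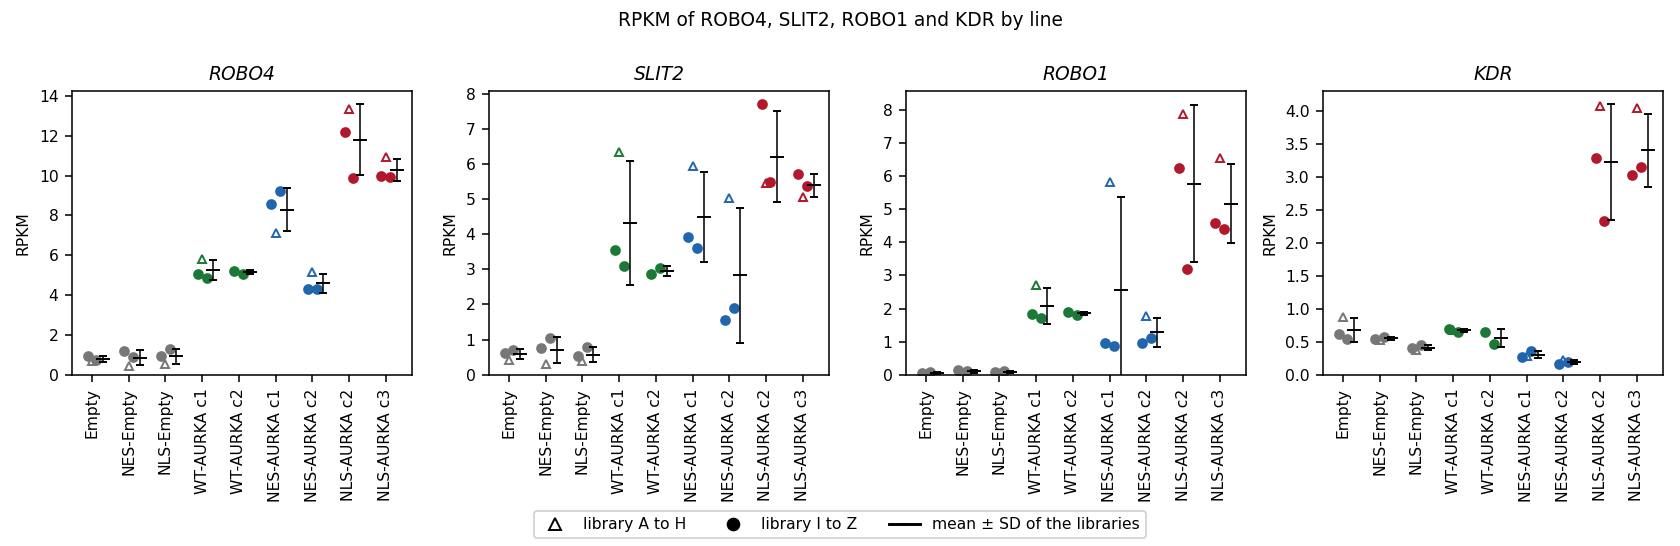
RPKM (y axis, linear, from 0) of ROBO4, SLIT2, ROBO1 and KDR in the 26 libraries by line (x axis), with open triangles for libraries A to H, filled circles for I to Z and the mean ± SD of each line. ROBO4, SLIT2 and ROBO1 are higher in all 17 AURKA libraries than in all 9 control libraries, and KDR exceeds 1 RPKM only in the 6 NLS-AURKA libraries.

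The genes closest to the other members were, for CCBE1, DAPK1 (r = 0.996) and NEDD9 (0.995), and for PGF, TCEAL8 (0.982), EBP (0.981) and GMFG (0.981). For VEGFA the values were lower, with FBXO6 (0.946), PNPLA4 (0.945) and DMKN (0.944). For VEGFC they were SPIN2B (0.976), NRGN (0.973) and GNG11 (0.973), and for VEGFB KCNN4 (0.979) and FCGRT (0.978). For NRP2 IFI27 (0.961) was among the closest. Among the 8 genes themselves, CCBE1 and PGF ran opposite to each other (r = -0.92 over 9 lines), as did VEGFA and VEGFC (-0.83), and ROBO4 ran with VEGFC (0.861).

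Of 13 regulators of VEGFA all were tested, and 1 rose and 3 fell in the AURKA lines (median -0.0017, against -0.02 for all). ETS1, a transcription factor of endothelial and tumour genes, rose from 25.1 ± 2.06 to 54.0 ± 14.1 RPKM (1.04, SE 0.19, limma adjusted p = 0.00590), and EPAS1, the hypoxia-inducible factor HIF-2 alpha, fell from 32.6 ± 4.18 to 13.8 ± 4.10 RPKM (-1.12, SE 0.26, adjusted p = 0.0163). EPAS1 was highest in the A to H control libraries, at 47.8, 60.4 and 69.1 RPKM. In I to Z the controls were at 17.9 to 21.7 RPKM and WT-AURKA at 16.4 to 20.2 RPKM, and the call was lost (-0.78, adjusted p = 0.186). HIF1A (-0.70, and -0.57 with adjusted p = 0.0502 in I to Z) and VHL (-0.54, and -0.58 with adjusted p = 0.124 in A to H) also fell, named after their values were seen. Of 12 genes of VEGFC processing and lymphatic identity 3 were tested and 2 fell, the proprotein convertase FURIN (-0.55, adjusted p = 0.00537, and 0.0518 in I to Z) and GATA2 (-0.41, adjusted p = 0.0245, and 0.901 in A to H), also named after their values were seen. Between NLS-AURKA and NES-AURKA 2 regulators rose and 2 fell (median -0.06), and 0 of the 3 processing genes passed.

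Of 14 angiogenesis inhibitors 8 were tested and 1, SPRY2 (0.83, adjusted p = 0.120 in A to H, named after its value was seen), rose in AURKA lines (median 0.32). In NLS-AURKA against NES-AURKA 3 rose and 2 fell (median -0.03). The secreted protease ADAMTS1 rose from 0.631 ± 0.146 to 27.0 ± 4.78 RPKM (4.08, SE 0.13, limma adjusted p = 4.57e-07), while COL18A1, the source of endostatin, fell (-1.23, SE 0.23, adjusted p = 0.00374, and 0.113 in A to H).

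Because ROBO4 is known from endothelium, markers of that cell type were read beside it. Of 17 endothelial markers 16 were in the table and 4 were tested, with 2 higher and 0 lower in the AURKA lines (median 0.77, against -0.02 for all). The summed level of the 16 was 21.4 to 33.0 RPKM in control and 31.9 to 72.1 RPKM in AURKA libraries. ESAM (18.3 to 64.1 RPKM) and EGFL7 (1.76 to 6.16 RPKM) make up most of it, and both were present in every library, controls included. They are the 2 that passed (0.83, limma adjusted p = 0.0175, and 0.79, adjusted p = 0.00706). EGFL7 did not pass in A to H (0.45, limma adjusted p = 0.0618). TIE1, an endothelial receptor tyrosine kinase, was at most 0.0406 RPKM in control libraries and at 0.0656 to 3.51 RPKM in AURKA libraries, highest in H of NLS-AURKA c2 (0.76, adjusted p = 0.0622 over all libraries and 0.0482 in I to Z). PECAM1, a junction protein of endothelium, was at 0.0444 to 0.164 RPKM in control and 0.121 to 1.23 RPKM in AURKA libraries, highest in F of NES-AURKA c1, and KDR was raised in NLS-AURKA as given above. Of the other listed markers, CDH5, VWF, CLDN5, EMCN and ERG were at most 0.112, 0.0515, 0.0547, 0.0313 and 0.0165 RPKM in any library. CD34, MMRN2, TEK, PLVAP and CLEC14A were at most 0.479, 0.101, 0.0636, 0.0479 and 0.0243 RPKM. The part of endothelial RNA in the ROBO4 values was not tested. The lymphatic markers LYVE1 and PDPN were at most 0.0199 and 0.0595 RPKM, and PROX1 at most 1.06 RPKM. None of the 4 lymphatic endothelial markers reached the filter (summed level 0.0597 to 0.358 RPKM in control and 0.0550 to 1.12 RPKM in AURKA libraries). Of 6 leukocyte markers only CD14 was tested, and it differed by 0.11 between AURKA and control lines (limma adjusted p = 0.563; sums 0.348 to 0.771 and 0.241 to 2.005 RPKM). Of 7 fibroblast markers only LUM was tested, and it fell (-0.64, limma adjusted p = 0.00642; sums 0.447 to 1.83 and 0.231 to 1.64 RPKM). Of 7 genes known to be high in MDA-MB-231, CAV1 (0.86, limma adjusted p = 0.0399, and 0.294 in A to H) and MSN (1.24, limma adjusted p = 0.000699) rose and none fell, with sums of 685 to 1043 RPKM in control and 650.1 to 2064 RPKM in AURKA libraries. Of 5 genes known to be low there, 3 were tested and limma called 0, at an unadjusted p under 0.05 also 0 (sums 4.24 to 7.12 and 3.34 to 8.39 RPKM). The named markers in these lists were picked out after their values were seen, and the part of these genes in the members' differences was not tested. Library D, which held 84.1 RPKM of AURKA against 12.7 to 14.3 RPKM in the other WT-AURKA libraries, was the WT-AURKA library highest in VEGFB, VEGFC, NRP1, NRP2 and ROBO4 and lowest in VEGFA and PGF. The part of AURKA level in these values was not tested.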

How the data were processed

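Per the labels' protocols, 500 ng of total RNA went into each KAPA mRNA library. The tools were HISAT2, SAMtools and Partek on hg19, per the submitters' processing notes. Versions, annotation and strand setting: not given in the sources used here. RPKM values came as 1 table from the authors, already scaled to transcript length and library total, so no count test was used.

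Depth was estimated from the RPKM worth of 1 read among low genes, with GENCODE transcript lengths found for 19602 genes. Tests ran in limma 3.58.1 under R 4.3.3, on log2(RPKM + 1), with the trend option of the empirical Bayes step. Genes at 1 RPKM or more in at least 2 libraries were tested (12589 of 33562, all 8 members included), and p-values were adjusted over all of them by Benjamini-Hochberg. AURKA against control lines (2 arms) and constructs (4 groups) were fitted to line means, called at an adjusted p under 0.05. Clones were fitted over 26 libraries, 1 coefficient for each line, and calls there also required a difference of at least 1. The script was tested on simulated data.

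Members and gene lists were chosen with earlier results of these data known. Named beside the members are called list genes, up to the 6 largest differences in each of 2 contrasts (AURKA against control, NLS-AURKA against NES-AURKA), and for each member the 3 genes with the highest r over line means among genes with an SD of at least 0.5; some of these without a settled gene name are left out. The lists cover receptors and co-receptors, other ligands, VEGFC processing, regulators, inhibitors, and endothelial, lymphatic, leukocyte, fibroblast and MDA-MB-231 markers. Alternatives were a pseudocount of 0.1, no filter, median scaling, a robust empirical Bayes step, each letter set alone or as a term, matched controls, and leaving out each line or library. Fits of the list genes in each letter set were added after seeing the data. Promoters come from RefSeq on GRCh38.p14; the table's build differs, so no coordinate of the table is used.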

Additional observations from a re-analysis of the deposited data

Results flagged for a closer look

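VEGFB was at 9.2 RPKM in the mean of NES-AURKA c2, far below the other 5 AURKA lines (16.5 to 19.4 RPKM). It was picked out because the gap to the next line takes up more of the 6 lines' range than Dixon's limit for 6 values allows, and 8 such groups, 1 per gene, were looked at, of which chance picks out about 1 in 20. All 3 libraries of that clone were low, so the value does not come from library A alone.

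CCBE1 differed between constructs in its effect against the matched control line, by 2.43 on the log2 scale for NLS-AURKA against NES-AURKA and by 2.21 for NLS-AURKA against WT-AURKA. PGF differed in the opposite direction, by -1.37 for NLS-AURKA against WT-AURKA. These fits were over libraries and do not measure the spread between clones or control lines. The part of the guide and cDNA label, which differ between NLS-AURKA and the other constructs, cannot be told apart from the signal.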

How the results depend on the processing

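No paired analysis was possible because the libraries carry letters and no replicate number shared between groups; signal and letter set were fitted as terms instead. With no filter on low genes 3 in place of 5 of the 8 genes passed in AURKA against control lines. The A to H libraries alone gave 1472 genes in AURKA against control lines (2423 in the full data), 979 in NLS-AURKA against NES-AURKA (4180), 405 in NLS-AURKA against WT-AURKA (4547) and 0 in NES-AURKA against WT-AURKA (613), and 2 and 1 of the 8 genes in the contrasts of NLS-AURKA with NES-AURKA (5) and WT-AURKA (4). In the I to Z libraries 5 in place of 3 differences between construct effects passed among the 8 genes. Without library A, 332 genes passed in NES-AURKA against WT-AURKA. With each line left out in turn, AURKA against control lines gave 902 to 2672 genes and 3 to 6 of the 8 (3 without any 1 control line). Likewise NLS-AURKA against NES-AURKA gave 2201 to 5453 genes and 3 to 6 of the 8 (3 without either NLS-AURKA clone), NLS-AURKA against WT-AURKA 2452 to 6257 genes, and NES-AURKA against WT-AURKA 20 to 2409 genes and 0 to 4 of the 8 (4 without NES-AURKA c1 and 1 without NES-AURKA c2). The cause was not tested.

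Reversals of sign touched only differences that had not passed. For NES-AURKA against WT-AURKA, VEGFA turned to 0.028 with median scaling, 0.31 in I to Z and 0.24 without library A (-0.43 to 0.36 with 1 line left out), and NRP1 to -0.43 in A to H (-0.022 to 0.32 with 1 line left out). With 1 line left out VEGFB ranged from -0.82 to 0.13 there, PGF from -0.55 to 0.081 and ROBO4 from -0.15 to 0.58. For NLS-AURKA against NES-AURKA, VEGFA was 0.88 and VEGFC -0.053 in A to H, and with 1 line left out VEGFA ranged from -0.64 to 0.14, VEGFB from -0.038 to 0.91 and VEGFC from -0.049 to 0.22. For NLS-AURKA against WT-AURKA, VEGFB was -0.0079 and NRP2 -0.13 in I to Z and VEGFA 0.27 in A to H, and with 1 line left out NRP2 ranged from -0.019 to 0.070 and VEGFA from -0.58 to 0.019. The calls of ROBO4 in each of 6 clones held under all 31 alternatives run for the library fit. Depth limits CCBE1 near 0. PGF and NRP2 are low genes, whose changes the log2(RPKM + 1) scale understates.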
